A study of Mus musculus with 6 samples.

Results

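The genes described here are 10 genes through which capillary endothelial cells (ECs) take up lipid: the lipase anchor Gpihbp1, the lipase Lpl and its inhibitor Angptl4, the fatty acid transport proteins Slc27a3 and Slc27a4, the fatty acid binding proteins Fabp4 and Fabp5, and the transcription factors Pparg, Meox2 and Tcf15. They were chosen by gene symbol, each symbol matched 1 row, and the 10 rows stand among 22183 genes in the deposited count table. RNA sequencing covered peritoneal ECs from the mesentery of 3 saline and 3 PD mice, 1 library per mouse. All were wild-type male C57BL/6J mice aged 8 to 10 weeks, which received saline or a high-glucose peritoneal dialysis (PD) fluid by daily injection into the peritoneal cavity for 6 weeks. The comparison of PD mice with saline mice addressed how this fluid alters the peritoneal endothelium.

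Triglyceride in blood travels in lipoproteins that are too large to leave a capillary. GPIHBP1, a membrane-anchored protein of capillary ECs, picks up lipoprotein lipase (LPL) that parenchymal cells secrete, carries it to the lumen and holds it there while it releases fatty acids. These are taken up with the help of CD36 and the transport proteins, bound inside the cell by FABP4 and FABP5, and passed on to the tissue. PPARG is a nuclear receptor activated by fatty acids that drives many of these genes, and MEOX2 and TCF15 form a pair of transcription factors that switch them on in the capillaries of heart and muscle.

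Of the 10 genes, 9 rose in PD mice (8 with DESeq2 or limma-voom, where Tcf15 did not pass), but relative to endothelial marker genes, which rose as well, only Lpl and Fabp5 were higher under each of the 3 endothelial scalings described below. The rises ran from 1.18-fold for Tcf15 to 2.61-fold for Lpl. Slc27a3, at 1.16-fold, did not pass the threshold. Among all 14005 genes tested with edgeR's quasi-likelihood test, 31.1% rose at an adjusted p under 0.05 and 58.9% changed in either direction. The median log2 fold change was 0.77 for the 10 genes and 0.02 for all tested genes. Each of the 10 was higher in every PD mouse than in any saline mouse, as were 34.0% of tested genes, and the groups were apart in either direction for 65.6%. Changes of at least 2-fold were seen for Lpl and Fabp5, and in the same direction for 15.4% of tested genes.

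**Figure D1:**
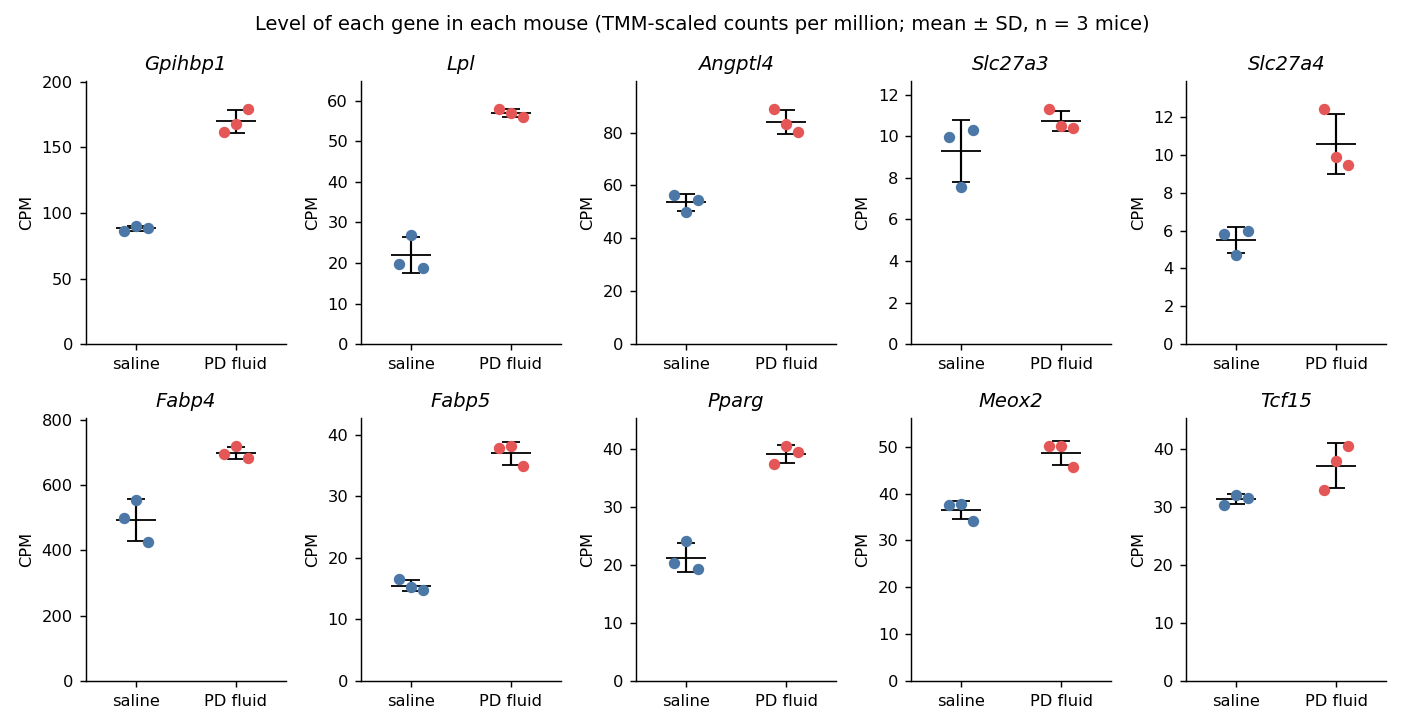
Level of each of the 10 genes in each mouse, in CPM, read counts relative to the TMM-scaled library total, from 0 (y axis), with saline mice in blue and PD mice in red. Points are mice, and bars give the mean and SD of 3 mice. The groups are apart in every panel, by a wide margin for Gpihbp1, Lpl, Fabp5 and Pparg and by a narrow one for Slc27a3 and Tcf15, and 7 of the 9 genes that rose do not keep that call under at least 1 endothelial scaling.

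The libraries held the RNA of several cell types. The sample labels describe magnetic sorting of CD31+ cells, while the methods describe sorting of CD31+ CD45- cells. Total counts ran from 21973426 to 26374292 per mouse. Pecam1, which encodes CD31, went from 469 ± 19.4 to 514 ± 7.85 CPM under PD fluid (mean ± SD, n = 3 per group). Ptprc, which encodes the leukocyte antigen CD45, exceeded it in every mouse, with 2373 ± 127 and 1473 ± 63.6 CPM (mean ± SD, n = 3 per group). Beside the genes, 10 markers of capillary ECs were measured, which cannot show which cells the reads of the genes came from. All 10 markers were detected and rose, with a median log2 fold change of 0.83. Among them, the receptor-like gene Cd300lg went from 120 ± 2.86 to 223 ± 4.54 CPM (mean ± SD, n = 3 per group), and Rgcc and Car4 had log2 differences of 0.88 and 0.68. Of 12 general endothelial markers, 11 rose, with a median of 0.95, among them Cdh5 (0.82), which encodes VE-cadherin. In these bulk libraries, more cells of a type and more RNA per cell cannot be told apart.

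Gpihbp1 (ENSMUSG00000022579; chromosome 15 of GRCm38, 75596628 to 75599481) was at 86.5, 90.3 and 88.7 CPM after saline and at 162, 168 and 179 CPM after PD fluid. Every PD mouse was therefore far above the saline mice, whose values differed by little. PD mice were higher by 0.94 ± 0.06 on the log2 scale (SE, adjusted p = 5.3e-07). Lpl (ENSMUSG00000015568; chromosome 8, 68880491 to 68907448), the enzyme that GPIHBP1 carries, was at 19.8, 27.0 and 18.9 CPM after saline and at 57.9, 56.9 and 56.1 CPM after PD fluid. Among the saline mice, the second stood above the other two, while the PD mice were nearly equal. Its log2 difference of 1.38 ± 0.12 (SE, adjusted p = 4.5e-06) was the largest of the 10. Angptl4 (ENSMUSG00000002289; chromosome 17, 33773750 to 33781830) encodes a secreted inhibitor that unfolds LPL, and it is a known PPAR target. It was at 56.2, 50.1 and 54.4 CPM after saline and at 88.8, 83.2 and 80.1 CPM after PD fluid. The groups were apart, with a log2 difference of 0.65 ± 0.08 (SE, adjusted p = 3.7e-05).

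The members of the SLC27 family are membrane-bound acyl-CoA synthetases that trap fatty acids in the cell. Slc27a4 (ENSMUSG00000059316; chromosome 2, 29802634 to 29817522) was at 5.82, 4.70 and 6.00 CPM after saline and at 12.4, 9.90 and 9.47 CPM after PD fluid. The first PD mouse was the highest, and all PD mice were above the saline mice. The log2 difference was 0.94 ± 0.16 (SE, adjusted p = 0.0006). Slc27a3 (ENSMUSG00000027932; chromosome 3, 90385239 to 90389938) was at 9.96, 7.56 and 10.3 CPM after saline and at 11.3, 10.5 and 10.4 CPM after PD fluid. The lowest PD mouse was only just above the highest saline mouse, and the second saline mouse was lower than all others. Its log2 difference of 0.21 ± 0.15 (SE, adjusted p = 0.24) had a 95% interval from -0.12 to 0.53, so the data do not show that its level was equal. In FPKM the groups overlapped.

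To show the regulatory sequence next to these paralogs, the 250 bases before the start site were taken from RefSeq (GRCm38.p6), with windows for 4 of the 10 genes used here. Capitals mark nuclear receptor half-sites (AGGTCA), E-boxes (CANNTG), the motif bound by basic helix-loop-helix factors such as TCF15, and TATA box cores (TATAAA), searched on both strands. Among 32841 promoter windows of that length, 14.0% held a half-site, 66.2% an E-box and 12.4% a TATA box core, and a pair of half-sites 1 base apart (AGGTCANAGGTCA), the arrangement that PPARG and RXR bind, was held by 0.0335%.
Slc27a4, chr2:29802384-29802633, plus strand: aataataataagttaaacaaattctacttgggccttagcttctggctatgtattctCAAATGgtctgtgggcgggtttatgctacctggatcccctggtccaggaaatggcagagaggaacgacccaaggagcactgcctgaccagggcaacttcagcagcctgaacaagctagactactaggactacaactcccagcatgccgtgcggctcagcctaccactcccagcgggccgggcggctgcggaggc
Slc27a3, chr3:90389939-90390188, minus strand: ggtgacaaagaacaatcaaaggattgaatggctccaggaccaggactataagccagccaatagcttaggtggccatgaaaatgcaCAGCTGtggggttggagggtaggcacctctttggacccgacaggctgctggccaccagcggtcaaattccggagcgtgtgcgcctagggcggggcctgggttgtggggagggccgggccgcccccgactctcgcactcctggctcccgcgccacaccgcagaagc
Both windows held 1 E-box and neither a half-site nor a TATA box core. The E-box of Slc27a4 began 194 bases before the start, and that of Slc27a3 began 165 bases before it. These matches describe the letters only.

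Fabp4 and Fabp5 encode small cytosolic carriers of fatty acids and lie 187 kb apart on chromosome 3. Fabp4 (ENSMUSG00000062515; 10204088 to 10208576) was at 498, 553 and 426 CPM after saline and at 694, 720 and 683 CPM after PD fluid. The saline mice were spread more widely than the PD mice, but the groups did not overlap. The log2 difference was 0.51 ± 0.09 (SE, adjusted p = 0.00052). Fabp5 (ENSMUSG00000027533; 10012548 to 10016607) was at 16.5, 15.2 and 14.7 CPM after saline and at 37.9, 38.2 and 34.9 CPM after PD fluid, so that each PD mouse had more than double the level of any saline mouse. Its log2 difference was 1.26 ± 0.09 (SE, adjusted p = 1.1e-06). Reads of Fabp5 could be shared with its processed pseudogene.

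Among the transcription factors, Pparg (ENSMUSG00000000440; chromosome 6, 115360951 to 115490399) was at 20.4, 24.1 and 19.3 CPM after saline and at 37.5, 40.6 and 39.5 CPM after PD fluid. All PD mice were well above the saline mice, at a log2 difference of 0.88 ± 0.10 (SE, adjusted p = 3.3e-05). Meox2 (ENSMUSG00000036144; chromosome 12, 37108540 to 37179534), a homeobox gene, was at 37.6, 37.7 and 34.2 CPM after saline and at 50.2, 50.2 and 45.8 CPM after PD fluid. The groups were apart by less than for Pparg, with a log2 difference of 0.42 ± 0.08 (SE, adjusted p = 0.0013). Its partner Tcf15 (ENSMUSG00000068079; chromosome 2, 152143561 to 152149097) was at 30.4, 32.2 and 31.6 CPM after saline and at 32.9, 38.0 and 40.6 CPM after PD fluid. The first PD mouse was close to the saline mice. The log2 difference of 0.24 ± 0.10 (SE, adjusted p = 0.048) lay at the threshold, and leaving out saline mouse 1 or 3 or PD mouse 2 or 3 raised the adjusted p above it, to as much as 0.15. The call was also lost with DESeq2 (0.07), limma-voom (0.055) and no filter (0.055), so that 8 of the 10 genes rose under each of these fits.

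Among the transcription factors, promoter windows were at hand for Pparg and Meox2 but not for Tcf15. Pparg has 3 RefSeq start sites, which the gene counts do not separate, and the most upstream and the most downstream are given.
Meox2, chr12:37108290-37108539, plus strand: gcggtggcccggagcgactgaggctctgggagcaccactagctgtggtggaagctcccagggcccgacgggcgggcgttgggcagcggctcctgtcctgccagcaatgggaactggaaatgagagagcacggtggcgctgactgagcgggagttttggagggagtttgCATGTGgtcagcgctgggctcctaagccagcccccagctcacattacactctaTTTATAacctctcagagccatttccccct
Pparg, upstream start site, chr6:115360894-115361143, plus strand: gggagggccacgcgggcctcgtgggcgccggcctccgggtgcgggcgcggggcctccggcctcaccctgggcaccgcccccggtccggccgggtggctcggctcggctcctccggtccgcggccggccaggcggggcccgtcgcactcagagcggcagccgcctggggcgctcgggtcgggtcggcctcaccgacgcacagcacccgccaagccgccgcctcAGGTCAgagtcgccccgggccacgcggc
Pparg, downstream start site, chr6:115421816-115422065, plus strand: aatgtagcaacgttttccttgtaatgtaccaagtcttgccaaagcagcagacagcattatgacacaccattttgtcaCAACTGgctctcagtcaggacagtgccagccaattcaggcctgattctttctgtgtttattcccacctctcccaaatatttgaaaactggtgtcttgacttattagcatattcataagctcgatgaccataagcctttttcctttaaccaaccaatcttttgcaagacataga
The Meox2 window held 1 E-box and 1 TATA box core. The upstream Pparg window, with 82.4% G and C and 38 CpG dinucleotides, held 1 half-site that began 28 bases before the start and no E-box. The downstream one, with 40.8% G and C and 2 CpG dinucleotides, held 1 E-box and no half-site. The window of the start site between them, which is not printed, held 1 half-site that began 9 bases before the start, 1 E-box and 1 TATA box core. Over all windows the median was 6 CpG dinucleotides. None of the windows of these 4 genes held the paired half-sites.

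Levels of different genes were compared by the FPKM that the authors deposited, which divides by transcript length. In saline mice, Fabp4 was highest, at 547 ± 66.7 FPKM (mean ± SD, n = 3), above 99.2% of tested genes. Gpihbp1 followed at 106 ± 2.29 FPKM (mean ± SD, n = 3), above 93.4%. Tcf15 at 31.9 ± 0.838 and Angptl4 at 24.9 ± 1.45 FPKM came next. Fabp5 at 15.6 ± 0.976 and Meox2 at 15.4 ± 0.755 FPKM overlapped between mice, and so did Pparg at 11.0 ± 1.21 and Lpl at 8.39 ± 1.63 FPKM. Slc27a3 at 4.13 ± 0.717 and Slc27a4 at 1.35 ± 0.184 FPKM were the lowest. In PD mice, Fabp4 reached 783 ± 33.5 and Gpihbp1 200 ± 5.29 FPKM (mean ± SD, n = 3 per group). Angptl4 at 39.1 ± 3.24, Tcf15 at 38.0 ± 3.07 and Fabp5 at 37.7 ± 2.72 FPKM then overlapped. Lpl, at 23.1 ± 1.40 FPKM, was now above Meox2 and Pparg by its mean, but its range met that of Meox2 at 20.7 ± 1.57, which in turn met that of Pparg at 20.3 ± 0.452 FPKM. Slc27a3 at 4.77 ± 0.357 and Slc27a4 at 2.63 ± 0.462 FPKM were again the lowest. The lipase itself was thus listed at a far lower level per length than its anchor in both groups.

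**Figure D2:**
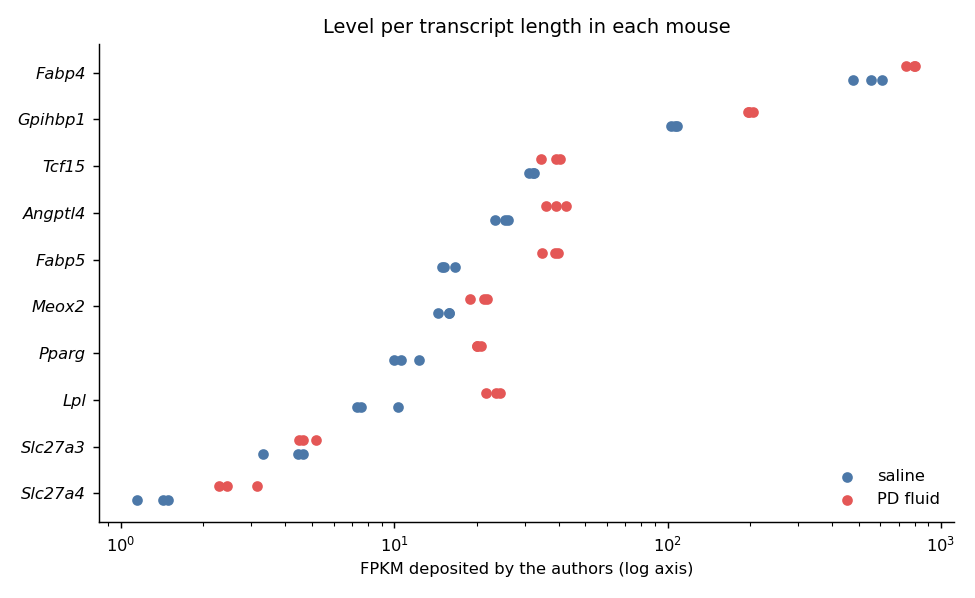
FPKM of each gene in each mouse on a log axis (x axis), ordered by the saline mean (y axis), with saline mice in blue and PD mice in red. Fabp4 lies between 477 and 806 FPKM and Slc27a4 between 1.15 and 3.15 FPKM, and the red points of Lpl and Fabp5 are shifted furthest from the blue ones.

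A ratio of 2 genes within the same mouse does not depend on how libraries are scaled against each other, so 5 pairs were compared in this way. Such a ratio can still depend on the mix of cell types in a library, whose part was not tested. Fabp5 counts were 3.16% of Fabp4 counts in saline mice and 5.30% in PD mice (geometric means). The log2 ratio was -4.91, -5.19 and -4.86 in saline mice and -4.19, -4.23 and -4.29 in PD mice. The groups were apart, with a difference of 0.75 on the log2 scale. For the transport proteins, the log2 ratio of Slc27a4 to Slc27a3 was -0.77, -0.68 and -0.78 in saline mice and 0.13, -0.08 and -0.13 in PD mice, a difference of 0.72. Both genes were thus about equally counted in PD mice, and Slc27a4 was the lower in saline mice. Angptl4 was lower relative to Lpl in PD mice, with a log2 ratio that went from 1.31 ± 0.36 to 0.56 ± 0.05 (mean ± SD, n = 3 per group). So was Gpihbp1 relative to Lpl, at a log2 ratio that went from 2.03 ± 0.26 to 1.57 ± 0.09 (mean ± SD, n = 3 per group). For these 4 pairs the groups did not overlap, and each two-sided exact permutation test returned p = 0.1, which is the lowest value this design can reach. Adjusted over the 5 pairs by Benjamini-Hochberg, this became 0.125. The ratio of Tcf15 to Meox2 overlapped between groups, at -0.22 ± 0.10 in saline mice and -0.40 ± 0.22 in PD mice (mean ± SD, n = 3 per group; exact permutation test, p = 0.3, adjusted p = 0.3).

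**Figure D3:**
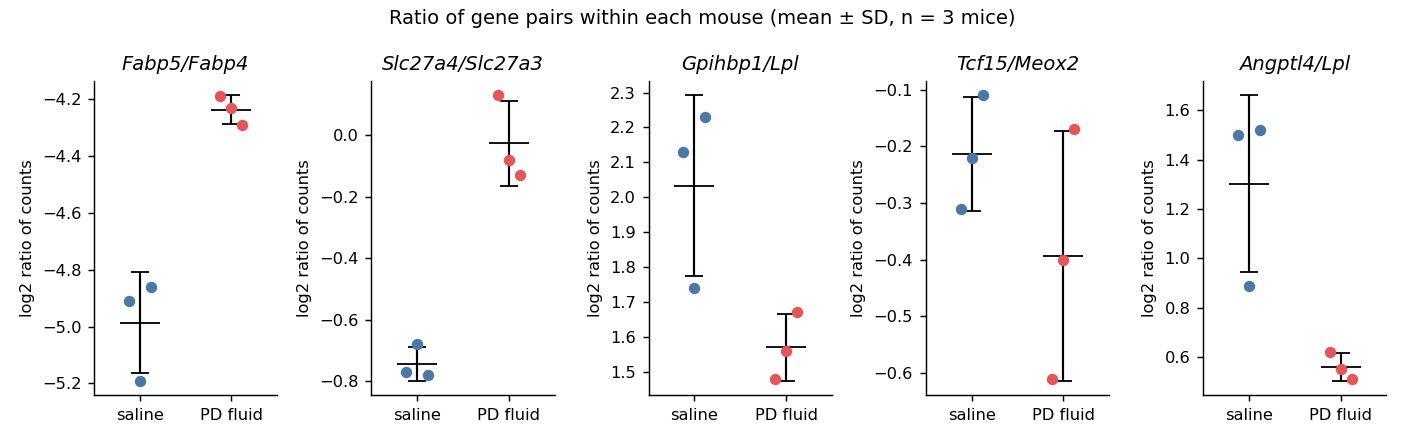
Log2 ratio of the counts of 2 genes within each mouse (y axis, a separate range per panel) in saline (blue) and PD mice (red), with mean and SD of 3 mice. In PD mice Fabp5 to Fabp4 and Slc27a4 to Slc27a3 are higher in every mouse, by 0.75 and 0.72 on average, Gpihbp1 and Angptl4 to Lpl are lower in every mouse, and Tcf15 against Meox2 overlapped between the groups.

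Because endothelial markers rose in PD mice, the fit was repeated with the libraries scaled to the summed counts of endothelial genes. Markers with many counts thus weighed most. In saline mice, Pecam1 made up 469 of the summed 1097 CPM of the endothelial markers, and Aqp1 546 of the 1215 CPM of the capillary markers. Scaled to the 12 endothelial markers, the median of all tested genes was -0.61, and 3 of the 10 genes were higher and 3 lower, against 13.2% and 61.8% of tested genes. Lpl (log2 fold change 0.75), Fabp5 (0.63) and Gpihbp1 (0.31) were higher. With TMM scaling, Gpihbp1 at 0.94 was near the median of 0.95 of the 12 markers. Meox2 (-0.22), Tcf15 (-0.39) and Slc27a3 (-0.43) were lower. Slc27a4 (0.31, adjusted p = 0.11), Pparg (0.25, adjusted p = 0.051), Angptl4 (0.02, adjusted p = 0.87) and Fabp4 (-0.13, adjusted p = 0.23) did not pass the threshold. Without Pecam1, the marker that changed least, 2 genes were higher (Lpl 0.46 and Fabp5 0.34) and 5 lower, against 8.88% and 70.6% of tested genes. This scaling and the next were chosen after seeing the data. Scaled to the 10 capillary markers, which put the median of all tested genes at -0.74, Lpl (0.61) and Fabp5 (0.50) were higher, against 11.3% of tested genes. Fabp4 (-0.26), Meox2 (-0.34), Tcf15 (-0.52) and Slc27a3 (-0.54) were then lower, against 66.0% of tested genes. Gpihbp1 was at 0.18 (standard error 0.09, adjusted p = 0.074) relative to the capillary markers. A scaling shifts all genes alike, so the distance of each gene from the median of all tested genes, from 0.19 for Slc27a3 to 1.36 for Lpl with the 12 endothelial markers, does not depend on it.

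**Figure D4:**
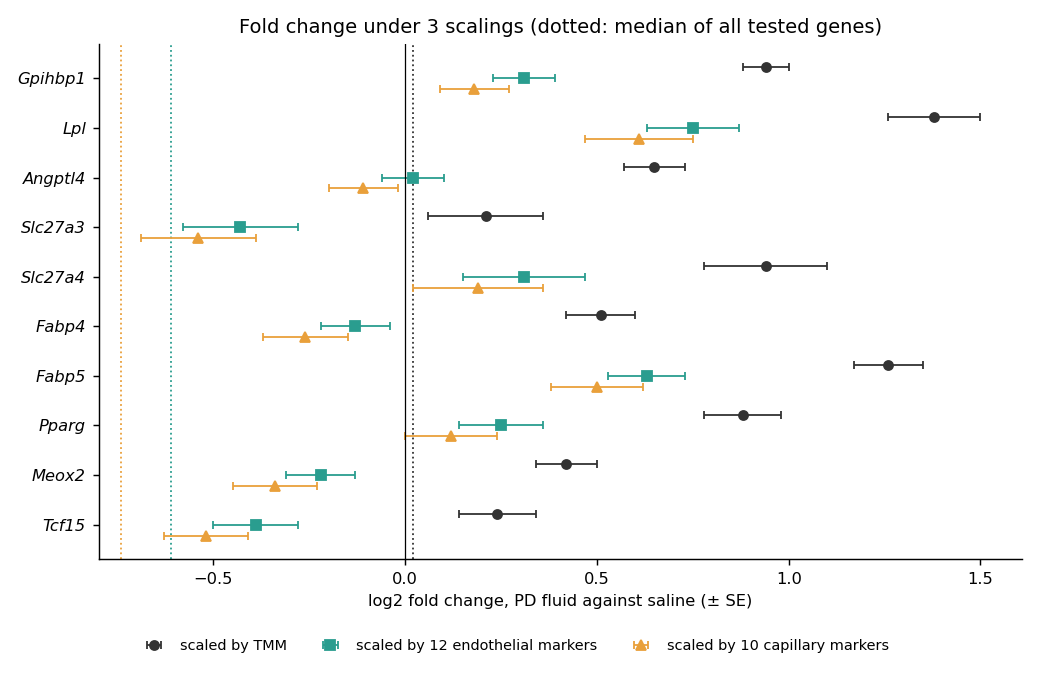
Log2 fold change of each gene (x axis, bars are standard errors) with TMM scaling (black circles), scaling to 12 endothelial markers (green squares) and scaling to 10 capillary markers (orange triangles), with dotted lines at the median of all tested genes. With TMM all 10 lie above 0, whereas with both marker scalings Fabp4, Meox2, Tcf15 and Slc27a3 lie below 0 and Lpl and Fabp5 remain furthest above it.

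Markers of other cells that are known to use the same genes were measured beside them. Fabp4, Fabp5, Lpl and Pparg are also expressed by macrophages. All 15 macrophage markers rose in PD mice, with a median log2 fold change of 2.03, and their summed level went from between 2864 and 3017 CPM to between 11456 and 12394 CPM. The macrophage gene Adgre1 rose from 85.5 ± 3.66 to 353 ± 14.1 CPM (mean ± SD, n = 3 per group), and Csf1r by 1.77 on the log2 scale. None of these markers was at 0 in any mouse, and their part in the rise of Lpl, Fabp5, Fabp4 and Pparg was not tested. Adipocytes also use several of the same genes. The summed level of the adipocyte list was between 280 and 289 CPM in saline mice and between 329 and 343 CPM in PD mice. Against 31.1% and 27.8% of all tested genes, 5 rose and 1 fell of 14 tested adipocyte markers. Those that rose were Plin4 (log2 fold change 1.66), Ffar4 (0.99), Thrsp (0.87), Lipe (0.49) and Aqp7 (0.44), and Car3 (-0.69) fell, all named after their values were seen. Adipoq was at 3.21 ± 0.811 and 2.60 ± 0.238 CPM and Plin1 at 0.438 ± 0.227 and 0.653 ± 0.152 CPM (mean ± SD, n = 3 per group), neither past the threshold, and Lep had no read in PD mice. The part of adipocyte RNA in the changes of the 10 genes was not tested.

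Among the remaining marker lists, all 10 fibroblast, all 10 mesothelial, all 8 lymphatic endothelial and all 12 pancreatic acinar markers rose, as did 8 of 10 markers of pericytes and smooth muscle, 8 of 9 tested neutrophil markers and 4 of 6 tested enterocyte markers. All 10 B cell markers and 9 of 10 leukocyte markers fell, and of 10 T and NK cell markers 2 rose and 4 fell. Among all tested genes, 31.1% rose and 27.8% fell. The summed level of the acinar markers was between 2.46 and 6.27 CPM after saline and between 10544 and 11399 CPM after PD fluid, that of the fibroblast markers went from 339 to 395 CPM up to 1435 to 1444 CPM, and that of the B cell markers from 7734 to 8141 CPM down to 3688 to 3704 CPM. Their part in the changes of the lipid uptake genes was not tested.

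The surrounding pathway was followed in 6 lists that hold none of the 10 genes. Of their 102 genes, 84 were tested, and 50 rose and 4 fell with TMM scaling, against 31.1% and 27.8% of all tested genes, with a median log2 fold change of 0.48 against 0.02. Relative to the 12 endothelial markers 23 were higher and 35 lower, against 13.2% and 61.8% of all tested genes, with a median of -0.15 against -0.61. Of the 6 lists, only the one around LPL kept a positive median under all 3 endothelial scalings, at 0.66 with the 12 markers. In that list, 7 of 14 tested genes were then higher and 3 lower. The part of other cell types in the changes of the 6 lists was not tested. Unless another scaling is named, values given from here on are with TMM. With it, the list around LPL had 12 of 14 tested genes higher and none lower. Among them were Apoc2, the activator of LPL, at 1.87 ± 0.245 and 11.0 ± 0.842 CPM, and the lipoprotein receptor Lrp1 at 4.99 ± 1.82 and 34.4 ± 4.61 CPM (mean ± SD, n = 3 per group). Pcsk6, a protease that cleaves LPL and ANGPTL proteins, had a log2 fold change of 2.43, and the sorting receptor Sort1 one of 1.52. Sel1l, needed for LPL to leave the endoplasmic reticulum, had one of 0.34. Lmf1, which folds LPL, was at 0.11 (adjusted p = 0.45). Relative to the 12 endothelial markers both were lower, Sel1l at -0.3 (adjusted p = 0.003) and Lmf1 at -0.52 (adjusted p = 0.0015). Lipg, the endothelial lipase, had a log2 difference of 2.77 (adjusted p = 0.00071) but reached only 1.62 ± 0.637 CPM in PD mice (mean ± SD, n = 3).

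In the list on uptake and activation of fatty acids, 5 of 12 tested genes rose and none fell, against 31.1% and 27.8% of all tested genes. Relative to the 12 endothelial markers 2 were higher and 8 lower, against 13.2% and 61.8% of all tested genes. Cd36, the main fatty acid receptor of ECs, went from 1415 ± 107 to 1860 ± 132 CPM (mean ± SD, n = 3 per group), a log2 difference of 0.39 ± 0.08 (SE, adjusted p = 0.0011), but was lower relative to the 12 endothelial markers, at -0.24 (adjusted p = 0.029). The HDL receptor Scarb1 had a log2 difference of 1.47, and Slc27a1, a further transport protein, one of 0.69. Relative to the 12 endothelial markers, Scarb1 was at 0.83 (adjusted p = 2.8e-06) and Slc27a1 at 0.05 (adjusted p = 0.63). Of the acyl-CoA synthetases Acsl1, Acsl3, Acsl4 and Acsl5, none passed the threshold, with log2 fold changes from -0.28 to 0.21. Among the other lipid binding proteins, 4 of 7 tested rose and 1 fell (3 and 3 relative to the 12 endothelial markers). Rbp7, a retinol carrier of capillary and fat ECs, had 61.9 ± 5.37 and 75.3 ± 8.51 CPM (mean ± SD, n = 3 per group), a log2 difference of 0.28 ± 0.10 (SE, adjusted p = 0.028) with overlapping groups, and was likewise lower relative to the 12 markers, at -0.35 (adjusted p = 0.01). The liver and gut protein Fabp1 fell by 0.57 on the log2 scale.

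Partners and targets of PPARG moved in both directions, with 10 of 19 tested higher and 3 lower, against 31.1% and 27.8% of all tested genes. Relative to the endothelial markers, 3 of the 19 were higher and 8 lower, against 13.2% and 61.8% of all tested genes. The PPARG partner receptor Rxra rose from 9.03 ± 2.55 to 23.5 ± 3.83 CPM (mean ± SD, n = 3 per group). The lipid droplet coat gene Plin2 rose from 222 ± 10.9 to 547 ± 51.6 CPM (mean ± SD, n = 3 per group). The 3 genes that fell with TMM encode cofactors of nuclear receptors, namely Ppargc1a (-0.92), Ncoa1 (-0.56) and the corepressor Ncor1 (-0.22). They were named after their values were seen. Of 17 tested genes of lipid droplet storage and hydrolysis, 13 rose and none fell, against 31.1% and 27.8% of all tested genes. The largest rises were those of the phosphatidate phosphatase Lpin3 at 2.29 and the lipase inhibitor G0s2 at 1.88. Relative to the endothelial markers, 4 of the 17 were higher and 6 lower, against 13.2% and 61.8% of all tested genes. Without Pecam1 among those markers, 2 were higher and 11 lower, against 8.88% and 70.6%.

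Upstream of these genes, 6 of 15 regulators rose and none fell with TMM, against 31.1% and 27.8% of all tested genes. Relative to the endothelial markers, 4 of the 15 were higher and 7 lower, against 13.2% and 61.8% of all tested genes. Relative to the capillary markers, 3 were higher and 9 lower, against 11.3% and 66.0%. The VEGFB receptor Flt1 rose from 47.9 ± 0.0898 to 132 ± 6.98 CPM and its co-receptor Nrp1 from 96.4 ± 1.29 to 200 ± 2.90 CPM (mean ± SD, n = 3 per group). Vegfb itself was at 2.71 ± 0.654 and 4.02 ± 0.814 CPM (mean ± SD, n = 3 per group; log2 fold change 0.57, adjusted p = 0.065). The hypoxia-inducible factor Epas1 had a log2 fold change of 1.07. Meox1, the paralog of Meox2, had one of 0.97 (standard error 0.11, adjusted p = 2.4e-05), named after its value was seen.

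**Figure D5:**
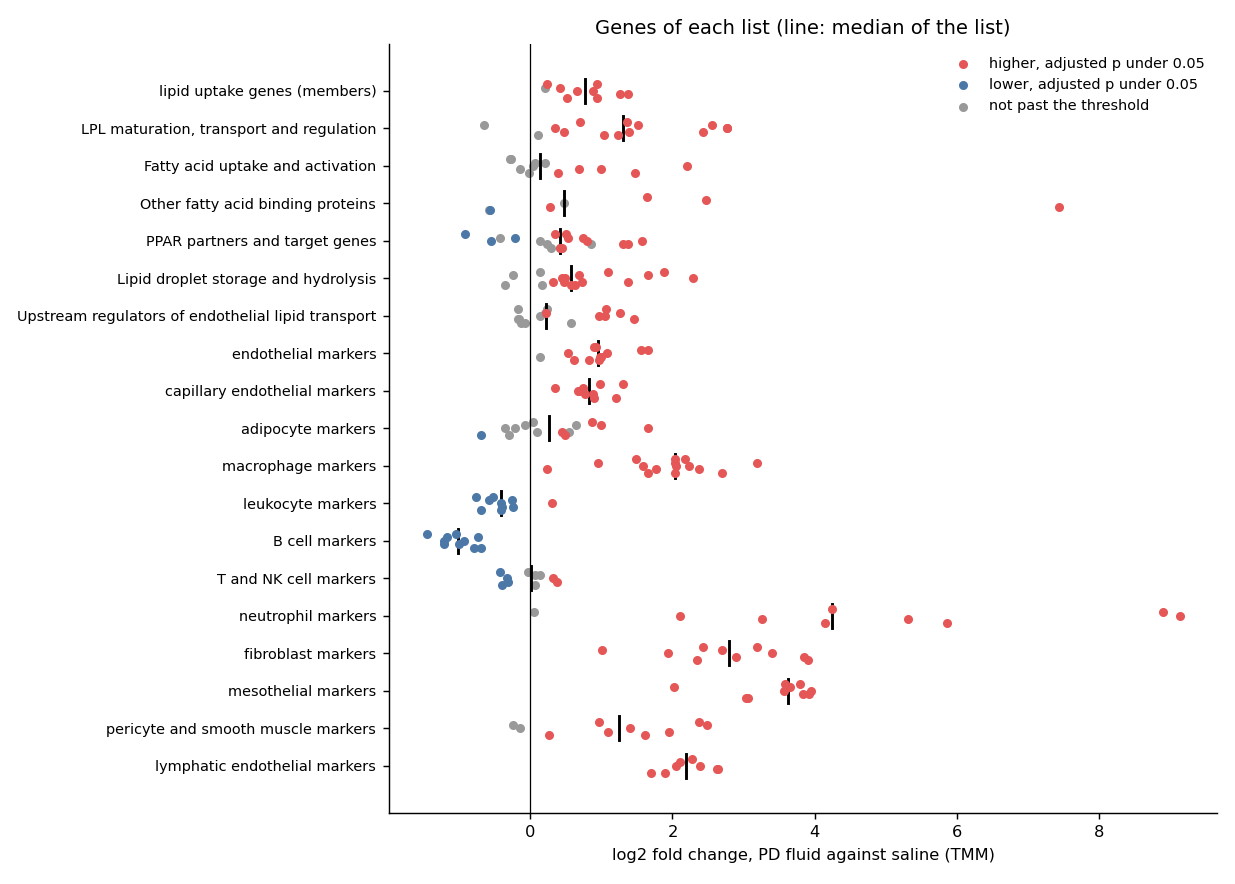
Log2 fold change with TMM scaling (x axis) of the 10 lipid uptake genes and of each tested gene of the pathway and marker lists (rows), in red where higher and in blue where lower at an adjusted p under 0.05 and in grey otherwise, with a black line at each list's median; acinar and enterocyte markers are left out. The lipid uptake genes, with a median of 0.77, lie beside the endothelial (0.95) and capillary (0.83) markers and below the macrophage markers (2.03), and the fitted values of Fabp2, Camp and Ltf, which were at or near 0 in saline mice, depend on the prior count. Relative to the 12 endothelial markers the medians of 5 of the 6 pathway lists lie below 0, between -0.49 and -0.06, and the median of all tested genes lies at -0.61.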

How the data were processed

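Peritoneal ECs of 3 saline and 3 PD mice were sequenced, with 1 library per mouse. The authors deposited whole-number read counts per gene without normalization, and FPKM values per mouse that they computed themselves. The deposited log2 ratio, p-value and FDR of the authors' own comparison were not used, nor was their mean FPKM, and 0 sample columns were left unmatched. The submitters' processing notes list fastp 0.18.0, Bowtie2 2.2.8, HISAT2, StringTie 1.3.1 and RSEM. The genome build and annotation are not given in the sources used here, so positions come from GENCODE M21 (GRCm38), to which 22128 of 22183 identifiers matched.

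Counts were analysed with R 4.3.3 and edgeR 4.0.16: filterByExpr (14005 genes kept), TMM scaling, and a quasi-likelihood fit of treatment without covariates. Adjusted p values are Benjamini-Hochberg values over all tested genes, with a threshold of 0.05, and unless stated otherwise every adjusted p is from this test. Totals of 21973426 to 26374292 counts per mouse leave the least precision for the genes with the lowest counts. Counts of pairs were compared as log2 ratios after adding 0.5 to each. DESeq2 1.42.0, limma-voom (limma 3.58.1), no filter, no TMM, the replicate block, marker scalings and leaving out each mouse were alternatives. The named genes are the 10 genes, pathway genes past the threshold with a log2 change of at least 1 and at least 5 CPM in a group (up to 4 per direction and list), Cd36, Lipg, Rbp7, Rxra, Vegfb and a few markers; others were added after their values were seen. A few genes that this rule names are not reported here. The members and lists were chosen with earlier results of these data known. The edgeR fit was tested on simulated counts with a fixed dispersion and few changed genes. It recovered 197 of 198 changed genes, and 17 calls (7.94%) were false at the threshold of 0.05. Python 3.11.15, scipy 1.17.1 and matplotlib 3.10.9 were used for tables and figures.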

Additional observations from a re-analysis of the deposited data

How the results depend on the processing

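The count of all genes past the threshold was 8246 and stayed within 1.5 times of it under every alternative run (6996 to 8018 with a mouse left out). Of the 10 lipid uptake genes, 9 passed, and between 6 and 9 did under the alternatives, in either direction. With DESeq2, limma-voom, no filter, no TMM, the replicate block and each mouse left out, the direction held for all 10. Tcf15 alone lost its call: 0.24 with the replicate block (adjusted p = 0.058) and without the filter, 0.23 with DESeq2 and limma-voom, and 0.18 to 0.24 without saline mouse 1 or 3 or PD mouse 2 or 3. With each mouse left out its values ran from 0.18 to 0.32, and the call was kept without saline mouse 2 or PD mouse 1. Same-numbered mice did not deviate together (correlations of 0.10, 0.04 and -0.17), so the numbers are not taken as pairs. The block gave 7909 calls over all genes and changed no other call among the 10.

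The marker scalings changed most calls by construction, since the divisor rose. With 12 endothelial markers the values that lost the call or turned were 0.02 for Angptl4, 0.31 for Slc27a4, 0.25 for Pparg, -0.43 for Slc27a3, -0.13 for Fabp4, -0.22 for Meox2 and -0.39 for Tcf15. Without Pecam1 among the markers, chosen after seeing the data, the median of all genes was -0.90 and the values were 0.02 for Gpihbp1, -0.27 for Angptl4, -0.71 for Slc27a3, 0.02 for Slc27a4, -0.41 for Fabp4, -0.04 for Pparg, -0.50 for Meox2 and -0.67 for Tcf15. With the capillary markers they were 0.18 for Gpihbp1, -0.11 for Angptl4, -0.54 for Slc27a3, 0.19 for Slc27a4, -0.26 for Fabp4, 0.12 for Pparg, -0.34 for Meox2 and -0.52 for Tcf15. Ratios of pairs kept their direction under every alternative, including differences between same-numbered mice. Among the 10 genes, Slc27a4 and Slc27a3 had the fewest counts.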
